A study of Mus musculus with 12 samples.

Results

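The genes described here are the mouse zinc finger genes named Zfp with a number of 3 digits that were expressed in oocytes, 93 of the 25162 genes in the table. They were chosen by level, as symbols of that form whose FPKM averaged 5 or more over the 6 value columns, with the highest of several lines used where a symbol was repeated. Zfp433 was the one member on 2 lines. The table held 315 such symbols, 191 of them with a mean of at least 1 FPKM, so the members are the upper range of the family and their levels are a description. Just inside the limit stood Zfp414, Zfp758 and Zfp715 with means of 5.15, 5.07 and 5.05 FPKM, and just outside it Zfp759, Zfp987 and Zfp141 with 4.73, 4.65 and 4.57 FPKM. The study sequenced polyadenylated RNA from mouse oocytes in which Rnaseh1 was deleted (KO in the labels, headed oo-/- in the table) or floxed and intact (WT in the labels, headed fl/fl), at the stages NGO, GO and FGO. The stage names are not expanded in the labels, and in this field stand for oocytes that are non-growing, growing or fully grown. All groups carry the floxed genotype or its deleted form. Neither the Cre line nor the age of the animals is given in the sources used here. Each sample held 10 oocytes and 100 pg of ERCC spike-in RNA, and the labels list 2 samples for each of the 6 groups. The values used here came as 1 column per group, so the differences below could not be checked against replicates and carry neither p-values nor SDs.

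Proteins of this family bind DNA or RNA through arrays of C2H2 zinc fingers, small loops held by a zinc ion between paired cysteines and histidines. Many of them also carry a KRAB box, which recruits the corepressor Trim28 and through it the histone methyltransferase Setdb1, so that the chromatin of bound sites, often retrotransposons or imprinted regions, is silenced. Other members without a KRAB box act as transcriptional activators or in splicing, ribosome quality control and spindle assembly. Oocytes store many transcripts during growth, and fully grown oocytes are known to stop transcription. RNase H1, encoded by Rnaseh1, removes RNA that is paired with DNA, as in R-loops, and the title of the series relates their clearance to genome silencing in oogenesis.

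Differences are given on the scale of log2(FPKM + 1), as KO minus WT or later minus earlier stage, and a gene is called higher or lower at a difference of 1 or more, that is 2-fold. The background is the set of 10110 genes that averaged 1 FPKM or more. Values called rescaled were computed after correcting every column by the median of its ratios to a geometric mean column, with factors of 0.453, 1.22 and 2.26 for KO and 0.514, 1.29 and 1.31 for WT at NGO, GO and FGO. Rnaseh1 was listed at 0.931, 3.10 and 8.02 FPKM in KO at NGO, GO and FGO, against 8.61, 27.8 and 29.1 FPKM in WT. All 14 oocyte markers examined were at 1 FPKM or more in every column, and 12 granulosa cell markers summed to 4.77, 14.2 and 78.6 FPKM in KO and to 2.84, 17.0 and 36.0 FPKM in WT. At FGO 8 of these 12 markers were at 1 FPKM or more in KO and 5 in WT. Inha was at 9.32 and 1.17 FPKM in KO and WT, Gja1 at 6.96 and 0.965, Hsd17b1 at 3.71 and 0.845 and Esr2, the highest, at 37.3 and 21.3. After rescaling the differences of Inha and Gja1 were 1.44 and 1.23. Those of Esr2, Cyp19a1, Kitl and Nr5a2 were 0.02, -0.03, 0.12 and 0.15. These 6 were the granulosa markers that averaged 1 FPKM or more. Foxl2 was at most 0.121 FPKM and Amh at most 0.457 FPKM in any column. At FGO 6 theca and stroma markers summed to 1.77 FPKM in KO and 4.49 in WT, with Dcn at 1.15 and 4.13. At NGO Dcn was at 0.393 FPKM in KO and 1.60 in WT, and Hba-a1 at 0 and 2.11. The sums at FGO were 1.99 FPKM in KO and 1.15 in WT for 4 immune markers. For 5 endothelial and blood markers they were 15.1 and 8.84. The part of RNA from granulosa or other somatic cells in the differences was not tested. The number of reads behind a column is unknown.

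The members were moderate in level. Together they summed to 583, 1946 and 4137 FPKM in KO at NGO, GO and FGO and to 648, 1928 and 2202 FPKM in WT, which is between 0.413% and 0.567% of all FPKM in a column. The highest of them, Zfp296, ranked 302 among the genes compared, 26 members had a mean of at least 20 FPKM and 38 a mean under 10 FPKM. No member was listed at 0 in any column. Zfp296, a zinc finger protein of pluripotent cells, was at 40.7, 168 and 455 FPKM in KO over the 3 stages and 57.6, 166 and 248 FPKM in WT. Its level was lower in KO than in WT at NGO, close in both at GO and, as deposited, higher in KO at FGO, where the rescaled difference was 0.08. Zfp655, whose human counterpart binds the signalling protein Vav, followed with 32.4, 107 and 291 FPKM across NGO, GO and FGO in KO oocytes, and 36.9, 123 and 202 FPKM in WT oocytes. Zfp212, a KRAB zinc finger, was at 30.7, 108 and 189.9 FPKM in KO at NGO, GO and FGO, against 31.8, 125 and 104 FPKM in WT. As deposited, the KO column of both genes was the higher one at FGO and the lower one at NGO and GO. After rescaling Zfp655 was lower in KO at FGO as well, at -0.26, and Zfp212 was higher in KO at NGO, at 0.13. Zfp207 (BuGZ), which binds Bub3 and serves kinetochores and spindle assembly, was at 25.4, 82.0 and 200.5 FPKM in KO over the 3 stages and 28.1, 77.1 and 101 FPKM in WT. Zfp108 was the member among the 10 highest with the widest gap at NGO, with 7.58, 84.0 and 188 FPKM across NGO, GO and FGO in KO oocytes, and 13.9, 97.4 and 100.4 FPKM in WT oocytes. Zfp979, Zfp707, Zfp706, Zfp961 and Zfp750 completed these 10, with means of 63.7, 53.9, 49.3, 47.6 and 35.9 FPKM over the columns. Zfp706 restrains self-renewal of mouse embryonic stem cells, and Zfp750 is known for its role in the epidermis. The 10 held 45.2% of the members' sum at FGO in KO and 46.2% in WT.

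**Figure D1:**
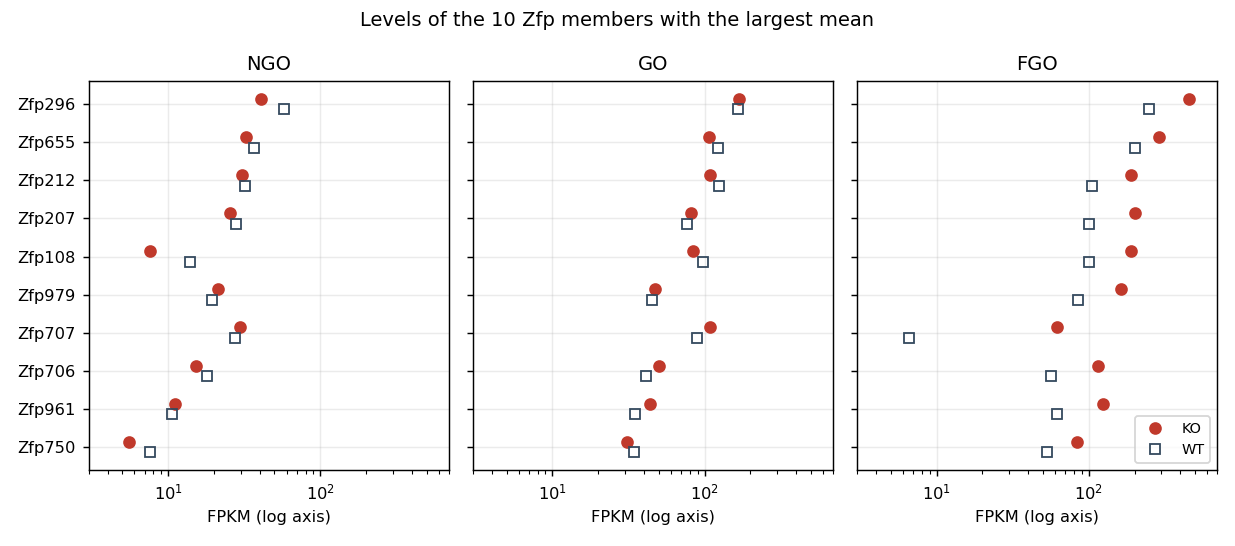
Levels (FPKM as deposited, log axis) of the 10 members with the largest mean, in KO (filled circles) and WT (open squares) at NGO, GO and FGO, 1 value per column. At FGO the KO value is right of the WT value for all 10, and Zfp707 stands out with 61.5 FPKM in KO and 6.55 in WT.

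From NGO to GO, 79 of the 93 members were at least 2-fold higher in KO and 70 in WT as deposited, and none was 2-fold lower in either genotype. Of all genes compared, 57.6% were 2-fold higher in KO and 54.8% in WT at this step, while 0.089% and 0.129% were 2-fold lower. The median difference of the members was 1.45 in KO and 1.33 in WT, against 1.10 and 1.06 over all genes. The members average 5 FPKM or more and the background 1 FPKM or more, so the levels compared are unlike. The 98 symbols of the same form with means of 1 to 5 FPKM had medians of 0.83 in KO and 0.85 in WT. Of these, 36 were 2-fold higher in KO and 35 in WT. After rescaling, which removes the step shared by most genes, 10 members were 2-fold higher and 1 was 2-fold lower in KO (all genes 5.37% and 2.59%), and 7 were higher and 0 lower in WT (all genes 6.06% and 3.27%). The largest rescaled differences in WT were those of Zfp735, Zfp616, Zfp982, Zfp108 and Zfp345. For these 5 the rescaled step was 1.58, 1.37, 2.05, 1.97 and 1.04 in KO, against 1.93, 1.92, 1.62, 1.44 and 1.38 in WT. At the other end of this step in WT stood Zfp644, Zfp414, Zfp473, Zfp772 and Zfp433, whose rescaled differences lay between -0.93 and -0.63 and passed the 2-fold limit for none. In KO, Zfp644 was 2-fold lower after rescaling at -1.21, and Zfp473 stood at 0.34, on the other side of 0 from its WT value of -0.73. Across the 93 members, which share columns and depth, the KO and WT steps correlated with Pearson r = 0.78 and Spearman rho = 0.70, and across all 10110 genes with r = 0.78 and rho = 0.72.

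The members with the steepest profile over growth were near 1 FPKM at NGO. Zfp735 was at 0.553, 6.92 and 46.3 FPKM in KO at NGO, GO and FGO, against 0.546, 8.88 and 28.6 FPKM in WT, so that WT FGO was 52.4 times WT NGO. Zfp708, a KRAB zinc finger that binds RMER19B retrotransposon sequence, was at 1.15, 6.91 and 73.1 FPKM in KO over the 3 stages and 1.05, 7.76 and 41.2 FPKM in WT. Zfp616 was at 0.637, 6.38 and 30.9 FPKM across NGO, GO and FGO in KO oocytes, and 0.691, 10.2 and 24.6 FPKM in WT oocytes. In these 3 genes every stage was higher than the one before, in both genotypes, and KO was close to WT at NGO, lower at GO and, as deposited, higher at FGO. After rescaling their differences at FGO were -0.09, 0.04 and -0.43, so that Zfp735 and Zfp616 turned to lower in KO. Zfp982 was at 0.599, 10.6 and 52.8 FPKM in KO at NGO, GO and FGO, against 1.23, 12.2 and 26.9 FPKM in WT. Zfp980 was at 0.806, 6.09 and 25.4 FPKM in KO over the 3 stages and 1.04, 7.94 and 11.1 FPKM in WT. Both were lower in KO than in WT at NGO and GO and higher at FGO, on both scales. Zfp735 and Zfp616 lie near each other on chromosome 11, at chr11:73688778-73713808 and chr11:74060897-74087301, and Zfp982 lies on chromosome 4 at chr4:147443114-147516064 (GRCm38.p6). As deposited Zfp980 was 2-fold higher in KO at FGO, at 1.12. After rescaling, none of the 5 differed 2-fold between KO and WT at any stage. The promoters of the 4 with the largest WT FGO to NGO ratio are shown to set their base composition beside that of the other members, as the 250 bases before the RefSeq start on GRCm38.p6, 5′ to 3′ on the gene's strand, with CpG in capitals. The windows are chr11:73688528-73688777, plus strand for Zfp735, chr13:67097977-67098226, minus strand for Zfp708, chr11:74060647-74060896, plus strand for Zfp616 and chr4:147442864-147443113, plus strand for Zfp982.
Zfp735: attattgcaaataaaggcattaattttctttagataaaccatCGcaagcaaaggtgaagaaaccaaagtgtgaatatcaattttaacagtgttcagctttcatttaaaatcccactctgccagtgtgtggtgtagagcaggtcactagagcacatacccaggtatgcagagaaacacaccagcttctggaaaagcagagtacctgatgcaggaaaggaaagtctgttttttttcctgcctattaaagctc
Zfp708: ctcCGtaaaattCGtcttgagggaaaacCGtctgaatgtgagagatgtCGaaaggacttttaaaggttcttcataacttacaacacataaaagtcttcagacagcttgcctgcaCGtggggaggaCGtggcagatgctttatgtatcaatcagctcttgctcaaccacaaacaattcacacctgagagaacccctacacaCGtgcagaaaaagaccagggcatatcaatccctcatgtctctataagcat
Zfp616: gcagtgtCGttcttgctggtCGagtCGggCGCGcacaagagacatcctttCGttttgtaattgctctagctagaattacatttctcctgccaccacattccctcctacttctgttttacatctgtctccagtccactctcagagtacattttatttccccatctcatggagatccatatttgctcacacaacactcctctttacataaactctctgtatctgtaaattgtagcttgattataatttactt
Zfp982: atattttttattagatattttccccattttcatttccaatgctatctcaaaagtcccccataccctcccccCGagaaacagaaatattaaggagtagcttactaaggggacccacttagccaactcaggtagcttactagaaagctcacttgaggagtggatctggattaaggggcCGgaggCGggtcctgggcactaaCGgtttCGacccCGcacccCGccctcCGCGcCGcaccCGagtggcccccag
These windows held 1, 7, 6 and 11 CpG in the order shown, at 39.2%, 44.0%, 41.6% and 52.4% GC. Over the 6 members with the largest WT FGO to NGO ratio, all with a promoter in the RefSeq table, the median was 4.5 CpG and 42.8% GC, against 11 CpG and 55.6% GC over the 79 members with a promoter and 16 CpG and 59.6% GC over 8168 of the genes compared. RefSeq lists 2 starts for Zfp708 and 3 for Zfp982. The most upstream start was used for every gene with several. Whether these starts are the ones used in oocytes was not tested.

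From GO to FGO, members in WT were 2-fold higher or lower at shares near those of all genes. In KO 46 members were at least 2-fold higher and 1 lower as deposited, against 8 higher and 10 lower in WT. Over all genes the shares were 39.0% higher and 0.514% lower in KO, and 6.50% higher and 9.22% lower in WT. After rescaling there were 6 higher and 6 lower in KO (all genes 6.42% and 3.66%), and 8 higher and 9 lower in WT (all genes 5.78% and 8.33%). Highest in WT after rescaling were Zfp708, Zfp735, Zfp277, Zfp951 and Zfp616, at 2.33, 1.69, 1.24, 0.56 and 1.24 in KO against 2.21, 1.54, 1.36, 1.23 and 1.16 in WT. Lowest were Zfp707, Zfp263, Zfp644, Zfp111 and Zfp428, at -1.68, -1.31, -1.63, -0.63 and -0.67 in KO against -3.54, -2.42, -2.19, -1.69 and -1.69 in WT. The upper 5 had close steps in both genotypes except Zfp951, and the lower 5 all had a value nearer to 0 in KO. Both sets were picked by the size of the WT step in single columns. That choice by itself favours KO values nearer to 0, so the comparison is a description. Across the 93 members the steps correlated with r = 0.90 and rho = 0.91, and across all genes with r = 0.81 and rho = 0.83. The step was below 0 in WT and above 0 in KO for 32 members as deposited (all genes 34.9%) and for 4 after rescaling (all genes 8.17%). As deposited, the highest column was GO for 7 members and FGO for 86 in KO, and GO for 39 and FGO for 54 in WT. After rescaling it was NGO, GO and FGO for 24, 24 and 45 members in KO and for 22, 25 and 46 in WT. The step in WT and the KO to WT difference at FGO share the WT FGO column.

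**Figure D2:**
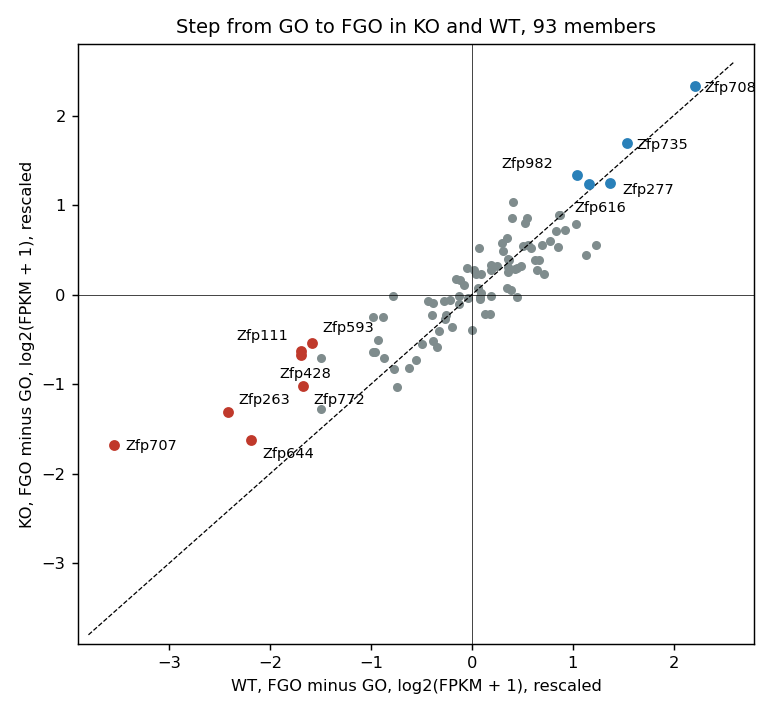
Step from GO to FGO of the 93 members after rescaling, KO on the vertical and WT on the horizontal axis, in log2(FPKM + 1); the dashed line marks equal steps, and red and blue mark named members below and above 0 in WT. Zfp707 lies furthest left, at -1.68 in KO and -3.54 in WT, while Zfp708, at the upper right, lies near the line.

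At NGO no member differed 2-fold between KO and WT, as deposited or after rescaling. The shares over all genes were 0.0297% higher and 0.326% lower as deposited, and 0.129% higher and 0.356% lower after rescaling. The median of the members was -0.10 and that of all genes -0.11, or 0.04 and 0.01 after rescaling. The largest positive values after rescaling were those of Zfp943 (0.75), Zfp960 (0.64), Zfp574, Zfp184, Zfp263, Zfp715, Zfp319 and Zfp692, the last at 0.39. Zfp943, a KRAB zinc finger, had 6.65 FPKM in KO and 4.29 in WT. The largest negative values were those of Zfp108 (-0.67), Zfp982 (-0.55), Zfp593, Zfp952, Zfp109, Zfp296, Zfp513 and Zfp143, the last at -0.29. Zfp108 had 7.58 FPKM in KO and 13.9 in WT.

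At GO, Zfp473 and Zfp960 were at least 2-fold higher in KO and no member was 2-fold lower, on both scales. Over all genes 0.95% were higher and 2.03% lower as deposited, and 1.05% and 1.28% after rescaling. Zfp473, whose human counterpart is a U7 snRNP protein of histone mRNA 3′ end processing, had 9.06, 31.4 and 31.5 FPKM across NGO, GO and FGO in KO oocytes, and 8.76, 12.7 and 6.99 FPKM in WT oocytes. The differences between KO and WT were 0.04, 1.24 and 2.02 over the 3 stages, and it was the one member whose difference shifted by at least 1 between NGO and GO (all genes 0.999% shifted up, or 0.603% after rescaling). Zfp960 was at 2.22, 6.91 and 18.2 FPKM in KO at NGO, GO and FGO, against 1.43, 2.25 and 6.58 FPKM in WT, higher in KO at every stage. It became a member through its KO columns, as its WT values alone average under 5 FPKM, so its call at GO is a description. Without the KO columns 17 of the 93 members would have had a mean under 5 FPKM. A transcript of Zfp97 matched at least 50% of that of Zfp960 with an identity of 95% or higher, so reads of the pair may have been shared. Zfp97 was at 3.71, 11.3 and 20.4 FPKM in KO over the 3 stages and 2.40, 3.38 and 6.16 FPKM in WT, with KO above WT at each stage as well. Next came Zfp574, Zfp951, Zfp938, Zfp687, Zfp939 and Zfp184, with rescaled differences from 0.87 down to 0.65. The lowest were Zfp821 (-0.69), Zfp664, Zfp638, Zfp616, Zfp839, Zfp120, Zfp598 and Zfp597 (-0.38). Zfp821 had 17.7 FPKM in KO and 31.1 in WT, and Zfp664 had 14.5 FPKM in KO and 24.1 in WT. The members' median was -0.02 as deposited, against -0.09 over all genes, and 0.05 against -0.03 after rescaling.

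The values at GO can be set beside the build of the protein. A KRAB box pattern was found in the longest coding sequence of 47 of the 92 members with a coding sequence in GENCODE M21, and the number of C2H2 patterns ran up to 23, with a median of 9. Members with the KRAB pattern had a median of 12 fingers, and those without it a median of 5. The 42 members with 10 or more fingers had a median rescaled difference at GO of 0.32, with 27 above 0, and the 50 with fewer had a median of -0.10, with 21 above 0. By the KRAB pattern the medians were 0.21 for members with it and -0.07 for those without. At NGO the medians were 0.14 for members with 10 or more fingers and -0.00086 for those with fewer, and at FGO 0.20 and 0.17. Both splits describe values of single columns and were not tested. The Spearman rho between finger number and the KO to WT difference was 0.29, 0.36 and 0.20 at NGO, GO and FGO. It was taken over the 92 members, which share columns and often ancestry. The rho between transcript length and the same difference was 0.17, -0.22 and -0.16. A sequence without the pattern may still encode a KRAB box.

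**Figure D3:**
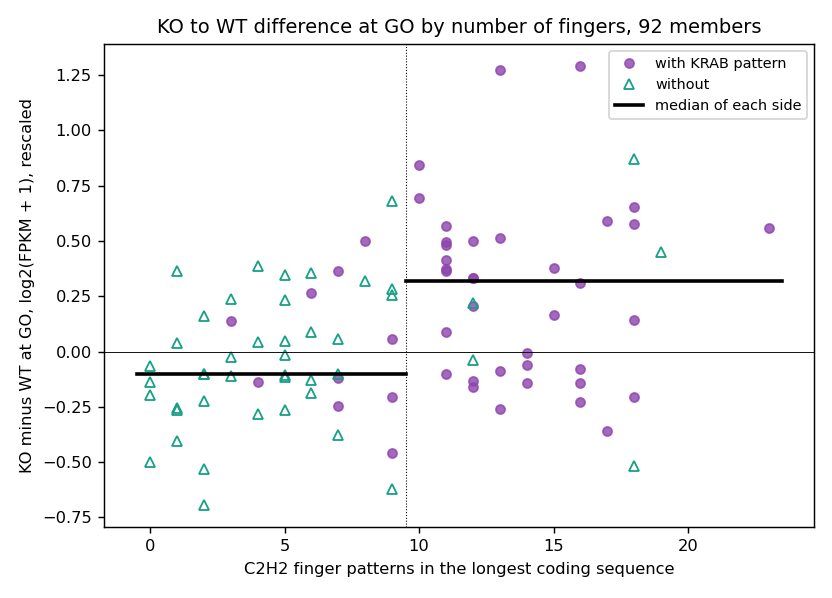
KO minus WT at GO after rescaling, in log2(FPKM + 1), against the number of C2H2 finger patterns in the longest coding sequence, for 92 members with (filled) and without (open) a KRAB pattern; thick lines are medians of members with 10 or more fingers and with fewer. The medians are 0.32 and -0.10, and both sides hold members above and below 0.

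At FGO, 33 of the 93 members were at least 2-fold higher in KO and 0 were 2-fold lower as deposited, where 25.8% of all genes were higher and 0.158% lower. The median was 0.93 for the members and 0.72 for all genes. After rescaling 6 members were 2-fold higher, namely Zfp707, Zfp263, Zfp473, Zfp772, Zfp593 and Zfp869, and 0 were lower, with 1.68% of all genes higher and 0.94% lower. The rescaled median was 0.19, against 0.02 over all genes. The choice of members leaned on this column: without KO FGO, 14 of the 93 would have had a mean under 5 FPKM, so the count and the median support nothing by themselves. Of the 6, Zfp593 and Zfp772 became members through their KO columns, as their WT values alone average under 5 FPKM. Their calls are a description. Between GO and FGO the KO to WT difference shifted up by at least 1 for 32 members as deposited (all genes 29.0%) and for 5 after rescaling (all genes 1.94%), which were Zfp111, Zfp263, Zfp428, Zfp593 and Zfp707. A downward shift of that size was seen for 0 members on either scale, where 0.148% of all genes had one as deposited and 0.485% after rescaling. In pooled oocytes, more cells of a type and more RNA per cell cannot be told apart.

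**Figure D4:**
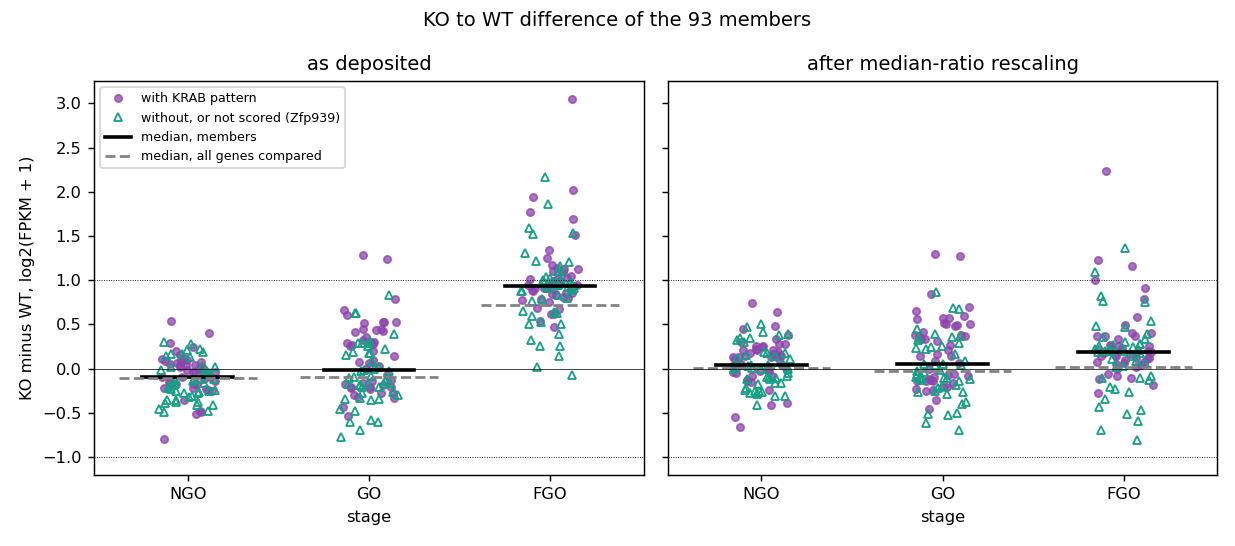
KO minus WT, in log2(FPKM + 1), of the 93 members at NGO, GO and FGO, as deposited (left) and after rescaling (right); each mark is a member, black lines are medians of the members, dashed lines medians of all 10110 genes, and dotted lines the 2-fold limits. At FGO the median of the members is 0.93 as deposited and 0.19 after rescaling.

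Zfp707 had the widest gap at FGO, with 29.5, 109 and 61.5 FPKM across NGO, GO and FGO in KO oocytes, and 27.5, 89.2 and 6.55 FPKM in WT oocytes. The genotypes were close at NGO and GO, and at FGO the KO column was 9.39 times the WT column, a difference of 3.05 as deposited and 2.23 after rescaling. Zfp263, a SCAN-domain zinc finger, was at 6.74, 16.5 and 11.0 FPKM in KO at NGO, GO and FGO, against 5.40, 14.4 and 1.66 FPKM in WT. Its difference at FGO was 2.17, or 1.37 after rescaling, and as deposited GO was the highest stage in both genotypes. Zfp772 was at 5.45, 9.83 and 7.83 FPKM in KO over the 3 stages and 4.63, 6.94 and 1.30 FPKM in WT. It was higher in KO at every stage, by 0.20, 0.45 and 1.94. Zfp869 was at 3.70, 10.8 and 11.4 FPKM across NGO, GO and FGO in KO oocytes, and 3.85, 9.69 and 2.63 FPKM in WT oocytes. KO and WT were close until GO, and from GO to FGO the step was 0.07 in KO and -1.56 in WT as deposited, and -0.70 in KO and -1.50 in WT after rescaling. Zfp593, whose yeast counterpart exports the large ribosomal subunit, was at 2.01, 8.78 and 10.5 FPKM in KO at NGO, GO and FGO, against 3.20, 8.98 and 2.15 FPKM in WT. It was lower in KO at NGO, level at GO and higher in KO at FGO, where the difference was 1.86 as deposited and 1.09 after rescaling. A transcript of E130218I03Rik overlaps and resembles Zfp593, and that gene was at most 0.495 FPKM in any column. Zfp111, with 19.0 FPKM in KO and 5.20 in WT, and Zfp639, with 38.9 FPKM in KO and 12.2 in WT, stood next at 0.92 and 0.82 after rescaling.

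**Figure D5:**
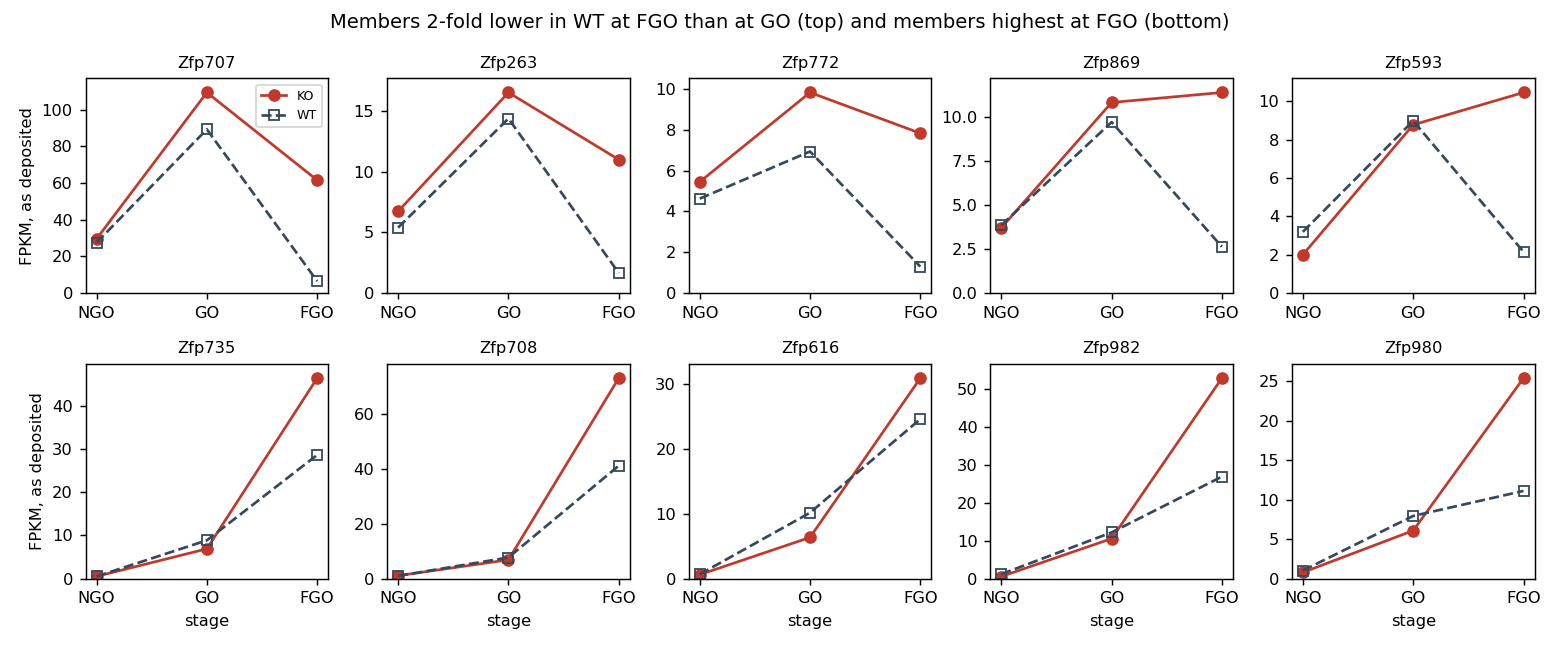
Levels (FPKM as deposited) by stage in KO (filled circles, solid line) and WT (open squares, dashed line), 1 value per column, of 5 members that were 2-fold lower in WT at FGO than at GO (top) and 5 members highest at FGO (bottom). In the top row the WT value at FGO is below its GO value in each panel, and in the bottom row both genotypes are highest at FGO.

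The promoters of the 4 members called higher in KO at FGO on both scales for which the RefSeq table holds a promoter are shown to set their base composition beside that of the late genes above. The windows are again the 250 bases before the start, with CpG in capitals, at chr16:3743849-3744098, plus strand for Zfp263, chr7:44748618-44748867, minus strand for Zfp473, chr7:7209999-7210248, minus strand for Zfp772 and chr8:69716903-69717152, minus strand for Zfp869.
Zfp263: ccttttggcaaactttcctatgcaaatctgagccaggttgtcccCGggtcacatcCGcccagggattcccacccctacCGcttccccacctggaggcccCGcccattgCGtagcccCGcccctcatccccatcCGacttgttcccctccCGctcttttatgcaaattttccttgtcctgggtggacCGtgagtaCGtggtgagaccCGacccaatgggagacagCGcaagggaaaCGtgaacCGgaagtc
Zfp473: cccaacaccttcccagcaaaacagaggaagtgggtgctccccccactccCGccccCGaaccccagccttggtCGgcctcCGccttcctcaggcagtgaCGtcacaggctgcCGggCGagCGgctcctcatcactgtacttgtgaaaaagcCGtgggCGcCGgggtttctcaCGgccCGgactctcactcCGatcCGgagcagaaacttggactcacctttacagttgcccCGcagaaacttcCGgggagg
Zfp772: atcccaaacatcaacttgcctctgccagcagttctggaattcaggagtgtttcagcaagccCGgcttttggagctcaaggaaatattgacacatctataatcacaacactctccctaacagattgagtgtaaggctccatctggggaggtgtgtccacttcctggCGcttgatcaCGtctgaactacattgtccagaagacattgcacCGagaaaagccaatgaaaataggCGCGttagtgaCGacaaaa
Zfp869: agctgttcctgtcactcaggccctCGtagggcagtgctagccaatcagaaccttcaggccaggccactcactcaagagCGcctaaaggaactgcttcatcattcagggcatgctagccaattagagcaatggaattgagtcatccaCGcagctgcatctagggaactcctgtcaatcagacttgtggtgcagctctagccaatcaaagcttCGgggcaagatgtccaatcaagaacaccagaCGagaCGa
They held 14, 17, 7 and 6 CpG in the order shown, at 59.6%, 63.6%, 46.8% and 52.0% GC. RefSeq lists 3 starts for Zfp473, of which the most upstream was used. The letters of each motif were searched on both strands, and none of the motifs contains another. The GC box letters GGGCGG were present in the first 2 of these windows, and the CCAAT letters in those of Zfp263, Zfp772 and Zfp869. GGGCGG was found in 48.1% of the members' promoters, 59.4% of those of genes compared and 33.0% of all 27018 promoters, and CCAAT in 48.1%, 38.2% and 34.5%. TATAAA was found in 2.53%, 6.34% and 13.0%, and the E-box letters CANNTG in 68.4%, 57.0% and 66.1%. Members with the KRAB pattern had a median of 7.5 CpG and those without it 14. These are matches of letters in a window, not sites.

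At the low end at FGO, no member was 2-fold lower in KO. Zfp638, an RNA- and DNA-binding protein of splicing and viral DNA silencing, was the lowest after rescaling at -0.80, with 4.87, 10.9 and 21.2 FPKM in KO over the 3 stages and 4.14, 17.1 and 22.4 FPKM in WT. It was also the one member with less FPKM in KO than in WT at FGO as deposited. Zfp598, the ubiquitin ligase that marks collided ribosomes, was at 9.77, 18.7 and 15.7 FPKM across NGO, GO and FGO in KO oocytes, and 13.4, 26.5 and 15.5 FPKM in WT oocytes. As deposited it was lower in KO at NGO and GO and level at FGO, and after rescaling it was the second lowest member at FGO, at -0.70. Zfp664, Zfp821, Zfp654, Zfp616, Zfp277 and Zfp160 followed, with rescaled differences from -0.60 to -0.27. Over all 3 stages, 22 members were higher in KO at each stage as deposited (all genes 18.6%) and 34 after rescaling (all genes 25.4%). Lower in KO at each stage were 0 members as deposited (all genes 3.25%) and 14 after rescaling (all genes 24.8%). Members were chosen by a mean that includes the KO columns. Without these columns 17 of them would have had a mean under 5 FPKM. That choice by itself favours more members higher in KO and fewer lower in KO than among all genes, so these counts are a description.

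Among members with a known role in regulating transcription, 10 in all, 0 were called at NGO or GO, and 3 (Zfp143, Zfp410 and Zfp687) were 2-fold higher in KO at FGO as deposited (all genes 25.8%) and 0 after rescaling (all genes 1.68%). Their rescaled medians were -0.05, 0.02 and 0.21 at the 3 stages. Zfp687, Zfp592 and Zfp532 are partners of ZMYND8 in human cells. At FGO Zfp687 had 9.65 FPKM in KO and 3.63 in WT. Zfp592 had 49.5 FPKM in KO and 31.1 in WT, and Zfp532 had 9.94 FPKM in KO and 4.80 in WT. On the log2(FPKM + 1) scale the difference was largest of these 3 genes for Zfp687. The WT values of Zfp687 and Zfp532 alone average under 5 FPKM, so both became members through their KO columns. Zfp143, an activator of many promoters, had 35.8 FPKM in KO and 17.4 in WT at FGO. Zfp410, known to activate the chromatin remodeller gene Chd4, had 17.5 FPKM in KO and 7.60 in WT. All 10 of the list were above WT in KO at FGO as deposited, as were 95.4% of all genes, and 7 of them after rescaling, where 52.1% of all genes were. Zfp644, which recruits the H3K9 methyltransferases G9a and GLP, was at 7.86, 8.50 and 3.56 FPKM in KO at NGO, GO and FGO, against 8.95, 11.2 and 1.47 FPKM in WT, and was the one member 2-fold lower at FGO than at GO in both genotypes as deposited. After rescaling 5 members were, namely Zfp263, Zfp644, Zfp707, Zfp715 and Zfp772. Over all genes 9.22% were 2-fold lower at this step in WT and 0.514% in KO as deposited, and 8.33% and 3.66% after rescaling. The share of all genes lower in both genotypes was not computed. Zfp541, a factor of meiotic prophase in spermatocytes, had 18.4 and 11.5 FPKM in KO and WT at FGO, and Zfp131, a BTB zinc finger, 17.5 and 8.62 FPKM. Zfp750 had 83.7 FPKM in KO and 53.2 in WT.

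Of the 9 members with roles in RNA, ribosomes, mitosis or SUMO, 0 were called at NGO or GO, and at FGO Zfp593 alone was called, on both scales (all genes 25.8% higher as deposited and 1.68% after rescaling). Their rescaled medians were 0.0028, -0.14 and 0.03. Zfp451, a SUMO ligase, had 52.1 FPKM in KO and 26.0 in WT at FGO. Zfp830, a splicing factor needed in early embryos, had 51.8 FPKM in KO and 29.6 in WT. Zfp106, an RNA-binding protein of motor neurons, had 15.0 FPKM in KO and 8.46 in WT. On the log2(FPKM + 1) scale the differences of these 3 were 0.98, 0.79 and 0.76 as deposited and 0.21, 0.02 and 0.03 after rescaling, all under the limit of 1. Zfp330, a nucleolar protein, had 48.7 FPKM in KO and 25.4 in WT, and Zfp277, which binds a ribosomal protein, 20.9 FPKM in KO and 15.7 in WT. Of 6 KRAB zinc fingers listed for a known silencing or imprint role, 2 were members, Zfp708 and Zfp932. Their rescaled differences were 0.04 and -0.0028 at FGO. Targets of the other members were not surveyed. Zfp932, which represses endogenous retroviruses, was at 5.08, 14.4 and 33.7 FPKM in KO over the 3 stages and 5.86, 13.4 and 19.5 FPKM in WT. Its close copy Gm15446 was at most 0.187 FPKM in any column. Zfp433 has a look-alike in Gm32687, which was at 0.653, 0.680 and 3.90 FPKM across NGO, GO and FGO in KO oocytes, and 0.281, 0.310 and 0.636 FPKM in WT oocytes, and Zfp708 one in Gm28557, which was not analysed here.

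Most genes that act with KRAB zinc fingers were at 1 FPKM or more in every column. The exceptions were Dnmt3l, at 0.504 and 0.792 FPKM in KO and WT at NGO, and Cbx3, at 0.758 FPKM in WT at FGO. Of 25 symbols named, which include Fam208a as an older name of Tasor, 24 were in the table and all 24 were compared. At NGO and GO 0 were called, and at FGO 4 were 2-fold higher in KO as deposited (all genes 25.8%) and 0 after rescaling (all genes 1.68%), with rescaled medians of -0.01, -0.07 and -0.14. Zfp57, the KRAB zinc finger that guards imprints, was the highest, with 328, 979 and 2178 FPKM in KO at NGO, GO and FGO, against 406, 1019 and 1583 FPKM in WT. Dnmt1, the maintenance DNA methyltransferase, was at 255, 455 and 405 FPKM in KO over the 3 stages and 264, 447 and 311 FPKM in WT. At FGO the KO value was the higher one for both genes as deposited, and the lower one after rescaling, at -0.33 for Zfp57 and -0.40 for Dnmt1. Trim28 was at 9.57, 23.9 and 35.3 FPKM across NGO, GO and FGO in KO oocytes, and 12.2, 36.2 and 25.5 FPKM in WT oocytes. Setdb1 was at 24.5, 69.9 and 112 FPKM in KO at NGO, GO and FGO, against 27.1, 80.0 and 81.1 FPKM in WT. Both were lower in KO at NGO and GO as deposited. At FGO they were higher in KO as deposited and lower after rescaling, at -0.30 for Trim28 and -0.32 for Setdb1, under 2-fold on both scales. Those called at FGO were Atf7ip, the Setdb1 partner, Morc3, Pphln1 of the HUSH complex and Hdac1. Atf7ip was at 11.6, 46.1 and 96.1 FPKM in KO over the 3 stages and 9.69, 31.7 and 28.9 FPKM in WT, higher in KO at every stage, with a rescaled difference of 0.91 at FGO.

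The members lay on 19 chromosomes, 21 of them on chromosome 7, 12 on chromosome 17 and 11 on chromosome 8, and 40 fell into 15 groups with gaps of at most 500 kb. The group on chromosome 17 from 21730955 to 22456689 held Zfp229, Zfp942, Zfp943, Zfp944, Zfp758 and Zfp946. Its rescaled KO to WT differences at FGO ran from 0.02 to 0.25, and at GO from -0.14 to 0.50. The group on chromosome 7 from 24193215 to 24515682 held Zfp111, Zfp109, Zfp108 and Zfp428, whose differences at FGO ran from 0.12 to 0.92 and at NGO from -0.67 to 0.15. In the pair on chromosome 16, Zfp263 stood at 1.37 at FGO and Zfp597 at 0.26. Neighbours within a group thus had unlike values in the last 2 of these and closer values at FGO in the first. Of the members, 34 overlap the span of another annotated gene, introns included. Smart-seq2 libraries do not keep strand, so reads in bases that both genes share cannot be assigned by strand.

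Beside the members, 98 symbols of the same form had means of 1 to 5 FPKM. Of these, 33 were 2-fold higher in KO at FGO as deposited (all genes 25.8%) and 3 after rescaling (all genes 1.68%), with medians of 0.86 and 0.22, against 0.72 and 0.02 over all genes. The 34 Zfp symbols with 1 or 2 digits had medians of 1.02 and 0.32 at FGO, and 19 were called higher as deposited and 0 after rescaling. The 30 Zbtb genes had medians of 0.75 and 0.11, the 10 Zscan genes 0.71 and 0.09, and the 8 Zkscan genes 0.98 and 0.22. All these medians at FGO were above 0, as was that of all genes.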

How the data were processed

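Polyadenylated RNA of pooled mouse oocytes was amplified by Smart-seq2, which does not mark strand, and read as 150 bp pairs, per the labels' protocols. The submitters' processing notes list HISAT2 2.2.1 for mm10, Cufflinks 2.2.1 and Trim Galore 0.6.7. The deposited FPKM were adjusted by the authors to the ERCC spike-in, as the file is named, and form 6 columns, 1 per genotype and stage. The sources used here give neither the formula, nor the annotation, nor whether a column is a mean, a pool or 1 of the 2 samples. A wrong factor for a column would scale all its values, so each comparison was also made after dividing columns by their median ratio. Depth per sample is unknown, so no interval can be given.

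Of 25912 lines, 2 with spreadsheet errors were left out, and of the lines of each of 333 repeated symbols the one of highest mean was taken. Differences were computed on log2(FPKM + 1) over 10110 genes averaging 1 FPKM or more and called at 1 or more. The design named limma for a column per sample, which could not be run. The members and lists were chosen with earlier results of these data known. Named are the 10 members of largest mean, the 8 largest positive and negative rescaled differences at each stage, the 5 largest in each direction for each WT step, members with listed roles, the 3 on either side of the limit, the genes that act with KRAB proteins and Rnaseh1. Positions and promoters came from RefSeq on GRCm38.p6, where 79 of 93 members matched a promoter, and fingers, KRAB patterns and lengths from GENCODE M21. A finger was the pattern of 2 cysteines 2 to 4 residues apart, a stretch of 12 residues and 2 histidines 3 to 5 apart. Look-alike transcripts were found with blastn 2.17.0 at 95% identity over 50% of the length. The steps were tested on simulated data. Software was Python 3.11.15 with numpy 2.4.6, pandas 2.3.3, biopython 1.88 and matplotlib 3.10.9. Alternatives were a pseudocount of 0.1, median-ratio scaling, equal column totals, no filter, member limits of 1 and 10 FPKM, symbols on 1 line only, and leaving out genes listed at 0.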

Additional observations from a re-analysis of the deposited data

Results flagged for a closer look

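Zfp593, whose yeast counterpart exports the large ribosomal subunit, changed sides between stages. Its KO to WT difference was -0.48 at NGO, with 2.01 FPKM in KO and 3.20 in WT, and 1.86 at FGO, with 10.5 FPKM in KO and 2.15 in WT. The shift of 2.34 between these stages drew attention because the sign was opposite at both ends, also after rescaling, at -0.41 and 1.09. It rests on 4 single columns, and the difference between stages was not tested. Zfp593 became a member through its KO columns, as its WT values alone average under 5 FPKM.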

How the results depend on the processing

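No paired analysis was possible because the table holds 1 column per genotype and stage, without replicate numbers, and leaving out a sample could not be run for the same reason.

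The scalings changed most values, and the cause was not tested. With median-ratio scaling the number of members called was 6 at FGO (KO against WT), 7 for WT and 11 for KO from NGO to GO, and 12 for KO from GO to FGO, and 5 members shifted 2-fold between GO and FGO. The medians of the members were 0.037 at NGO and 0.19 at FGO, and those of the silencing list -0.0087 at NGO and -0.14 at FGO, where 0 genes were called. With equal column totals the calls were 7 at FGO, 7 for WT and 12 for KO from NGO to GO and 11 for KO from GO to FGO, with 5 shifted. The medians were 0.098, 0.081 and 0.30 for members at the 3 stages and 0.056, -0.036 and -0.025 for the silencing list, with 1 called at FGO. With a pseudocount of 0.1, 2 members shifted between NGO and GO.

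The choice of genes moved counts through the number of genes counted. Without a filter (315 symbols) 68 were called at FGO, 106 for WT from NGO to GO and 39 for WT from GO to FGO, 2 and 63 shifted, and the FGO median was 0.63. With a limit of 1 FPKM (191 symbols) 66 were called at FGO and 37 for WT from GO to FGO, and 2 and 59 shifted. With a limit of 10 FPKM (55 members) the calls were 1 at GO, 18 at FGO, 46 and 8 for the WT steps and 51 and 30 for the KO steps, and 17 shifted between GO and FGO. Of 68 named differences under 8 alternatives, 543 values in all, 415 moved by less than 0.1, 128 by more and 0 called differences changed sign. Each median-ratio and equal-total scaling changed the sign of 12 named differences that were under 2-fold, and moved 2 across the 2-fold limit. The named differences were picked as the largest after median-ratio rescaling, which by itself favours few changed calls. Over all members the number called higher in KO at FGO was 33 as deposited and 6 after that rescaling. The depth behind a column is unknown, so differences of genes near 1 FPKM are the least certain.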
